A study of Homo sapiens with 4 samples.

Results

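ZNF genes carry numbered symbols given to human zinc finger genes, and the 141 described here were those expressed in ES-2 cells. They were chosen by their level, as genes with such a symbol and a mean RPKM of 3 or more over 4 libraries. RPKM is the read count of a gene scaled by its length and by the reads of the library. Of 19626 genes in the tables, 485 had a ZNF symbol and 141 of these reached the limit. ES-2 is an established human ovarian clear cell carcinoma line that carries the endogenous YAP1-MAML2 (YM) fusion. Its cells received pLKO.1 lentivirus with either a non-targeting shRNA (shCtl, 2 independent cultures) or shM2-3 (also 2), an shRNA against a sequence that MAML2 and the fusion share. RNA was taken 96 h after the first infection by the sample labels, and all 4 libraries came from infected cells. The comparison asked how depletion of the fusion together with MAML2 changed RNA levels, in 1 cell line and with 1 shRNA, so that silencing of the fusion, of MAML2 and of any other target cannot be told apart.

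Most ZNF proteins hold C2H2 zinc fingers, short loops folded around a zinc ion by a pair of cysteines and a pair of histidines, which often stand in arrays that read DNA. The largest class also has a KRAB domain, which recruits the corepressor TRIM28 and through it SETDB1, the enzyme that writes H3K9 trimethylation, and many of these proteins silence transposable elements. A SCAN domain lets such proteins pair with each other. Other ZNF symbols belong to proteins that work on RNA, ribosomes or the cytoskeleton, and some of those hold no C2H2 finger.

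Library totals ran from 20051083 to 23978660 estimated counts, of which the 141 members took 0.553% to 0.602%. The targeted gene, MAML2, had an RPKM of 8.61 and 8.26 in shCtl and of 3.11 and 3.0 in shM2-3 (log2 fold change -1.40). Of the carcinoma markers read to check the label, KRT7, KRT8 and KRT18 were detected, whereas EPCAM, CDH1 and PAX8 were below 0.2 RPKM in every library. The summed RPKM of that list was 637 to 638 in shCtl and 313 to 317 in shM2-3. The summed fibroblast list, almost all PDGFRA, was 8.49 to 8.61 in shCtl and 26.5 to 26.9 in shM2-3, with 4 of its 7 genes under 0.1 RPKM. The leukocyte list, almost all CD68, was 57.4 to 58.3 and 40.0 to 41.1, and the endothelial list, mostly CDH5, was 9.48 to 10.6 and 5.11 to 5.65. Within the endothelial list PECAM1 went the other way, from 0.0376 and 0.0308 RPKM in shCtl to 1.31 and 0.923 in shM2-3 (adjusted p = 2.09e-08). The part of these shifts in the results below was not tested. In bulk RNA a change in the number of cells of a kind and a change in RNA per cell cannot be told apart.

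Promoter sequences are shown for the 2 members with the largest falls and the member with the largest rise, since YAP1 and its fusion reach DNA through TEAD factors. Each line gives the 250 bases before the RefSeq start of the gene (GRCh38.p14), 5′ to 3′ on the gene's strand, with any TEAD letters (GGAATG, or CATTCC from the other strand) in capitals. The ZNF330 window lies at chr4:141220645-141220894 on the plus strand, that of ZNF121 at chr19:9584505-9584754 on the minus strand, and that of ZNF362 at chr1:33256242-33256491 on the plus strand.
ZNF330: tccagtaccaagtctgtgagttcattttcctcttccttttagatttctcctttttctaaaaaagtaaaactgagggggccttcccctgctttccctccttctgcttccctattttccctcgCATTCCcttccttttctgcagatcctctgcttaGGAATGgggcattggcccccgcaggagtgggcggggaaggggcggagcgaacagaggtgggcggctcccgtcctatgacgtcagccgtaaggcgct
ZNF121: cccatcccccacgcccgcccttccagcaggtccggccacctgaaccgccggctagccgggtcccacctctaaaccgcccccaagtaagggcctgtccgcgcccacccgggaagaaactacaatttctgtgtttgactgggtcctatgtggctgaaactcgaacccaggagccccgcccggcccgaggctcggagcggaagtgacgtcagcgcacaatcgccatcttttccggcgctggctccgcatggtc
ZNF362: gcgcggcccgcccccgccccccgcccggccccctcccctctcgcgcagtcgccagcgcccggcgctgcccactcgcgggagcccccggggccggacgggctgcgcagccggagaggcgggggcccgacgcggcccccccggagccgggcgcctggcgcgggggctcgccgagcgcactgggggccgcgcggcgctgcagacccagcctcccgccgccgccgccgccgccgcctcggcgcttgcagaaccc
ZNF330 held the TEAD letters on both strands, and the windows of ZNF121 and ZNF362 held none. Of the 119 members matched to a promoter, 13 (10.9%) held the TEAD letters, beside 11.9% of all 27305 promoters and 9.53% of the promoters of tested genes. The letters stood in 3 of 28 matched members that fell and in 4 of 53 that rose. Among the 11 matched members that changed at least 2-fold, ZNF330 was the only one that held them. The E-box CACGTG, which reads the same on both strands, stood in 8 of 119 members (6.72%), in 6.49% of all promoters and in 8.93% of the promoters of tested genes. These are matches of letters and were not tested for binding.

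Few members changed at least 2-fold, but many changed by less. A gene was called where it changed by 2-fold or more and its p, from the quasi-likelihood test of edgeR and adjusted by Benjamini-Hochberg over 12157 genes, was 0.05 at most. By this rule 3 members fell, beside 8.93% of all genes tested. In the other direction 10 members rose, beside 9.24% of all genes. Those counts are 2.13% and 7.09% of the members. Of the 9155 tested genes with a mean RPKM of 3 or more, 6.87% were called lower and 7.12% higher. Without the fold limit, 31 members had lower RNA, which is 22.0% beside 36.4% of all genes. Higher RNA was found for 63 members, 44.7% beside 36.3% of all genes, and 47 did not pass. For the 9155 genes these shares were 38.7% lower and 37.6% higher. Both shM2-3 libraries lay under both shCtl libraries for 40 members (28.4%, beside 43% of all genes) and over both for 72 (51.1%, beside 42.6%), and the groups overlapped for 29. The median log2 fold change was 0.14 over the members and -0.00373 over all genes tested, and the quartiles of the members were -0.16 and 0.44, beside -0.45 and 0.44 for all genes.

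**Figure D1:**
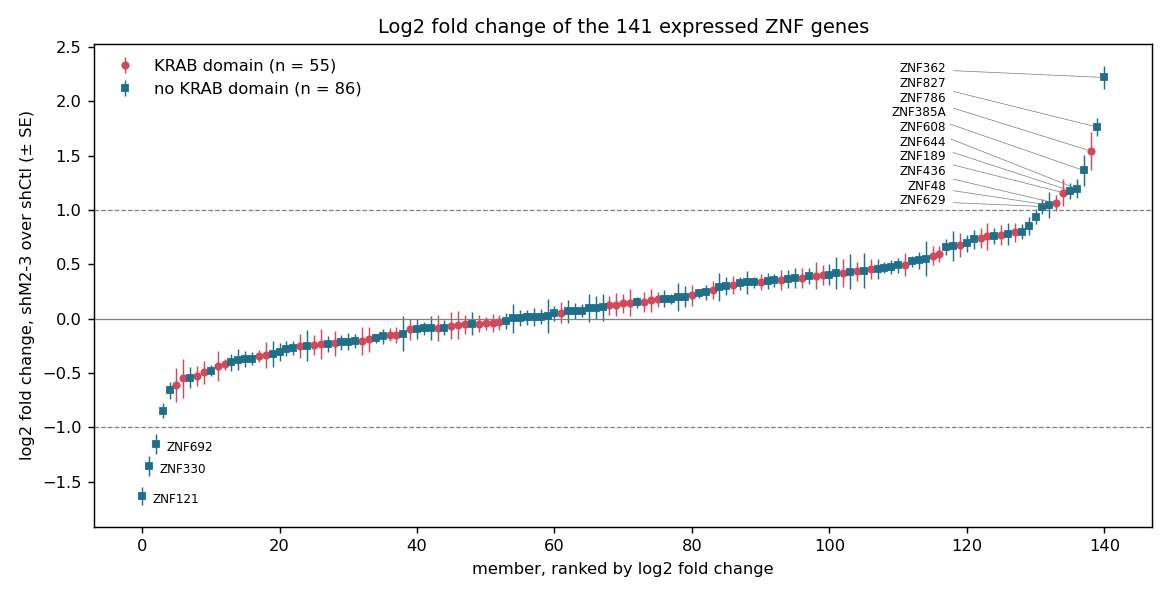
Log2 fold change of each of the 141 members, shM2-3 over shCtl, with bars of 1 standard error, ranked along the horizontal axis and marked by whether a KRAB domain was found; dashed lines mark a 2-fold change. ZNF121 stands lowest at -1.63 and ZNF362 highest at 2.22, and most members lie within the dashed lines.

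**Figure D2:**
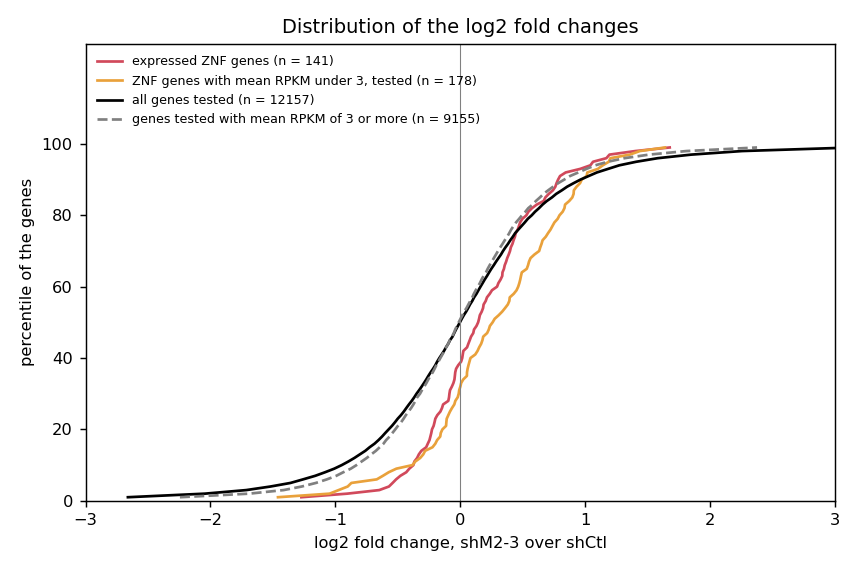
Percentile of genes (vertical) against log2 fold change (horizontal) for the 141 members, the 178 tested ZNF genes under the RPKM limit, all 12157 genes tested, and the 9155 tested genes with a mean RPKM of 3 or more. Both ZNF curves cross 50% to the right of 0, at 0.14 and 0.26, and fewer ZNF genes than other genes lie in the far left tail. The far right tail is thinner too. There the 97th percentile is 1.19 for the members and 1.36 for the ZNF genes under the limit. It is 1.85 for all genes tested and 1.51 for those with a mean RPKM of 3 or more.

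Because the level over both groups chose the members, genes that were low in control cells entered only if shM2-3 cells held more. A mean RPKM of 3 was reached only in shM2-3 by 13 members, and 7 of the 10 members that rose at least 2-fold were among these, so that they had to be higher. ZNF121, ZNF18 and ZNF485 reached it only in shCtl. For the 125 members at 3 or more in both groups, the median log2 fold change was 0.10, with 2 members at least 2-fold lower and 3 at least 2-fold higher. Those are 1.6% and 2.4% of the 125, beside 8.93% and 9.24% of all genes tested. The 28 members with a mean RPKM of 10 or more had a median of -0.05, the 60 from 5 to 10 a median of 0.08 and the 53 from 3 to 5 a median of 0.34. For the 178 tested ZNF genes under the limit, the median was 0.26. Of these, 5 were called lower (2.81%, beside 8.93% of all genes) and 17 called higher (9.55%, beside 9.24%). The members nearest the limit from above were ZNF786, ZNF839 and ZNF18, at mean RPKM of 3.07, 3.08 and 3.11. From below they were ZNF414, ZNF8 and ZNF883, at 2.96, 2.95 and 2.94.

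ZNF121 showed the largest fall. Its RPKM was 9.62 and 9.54 in shCtl and 3.26 and 2.65 in shM2-3, so that 30.8% of the control level remained. The groups stood far apart, and the estimated counts behind these values ran from 484 to 1599. The log2 fold change was -1.63 (SE 0.0830, adjusted p = 7.75e-10). ZNF121 (chr19:9560329-9584504, minus strand) encodes 9 C2H2 fingers with no KRAB domain.

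ZNF330, which encodes a nucleolar zinc-binding protein with no match to the C2H2 pattern, had an RPKM of 15.9 and 15.5 in shCtl and of 5.73 and 5.99 in shM2-3. The 2 pairs were tight and did not overlap (log2 fold change -1.35, SE 0.0931, adjusted p = 1.81e-08). ZNF692, also called AREBP, a DNA-binding protein named for the AICAR response element, had 12.2 and 11.6 in shCtl and 4.95 and 5.31 in shM2-3. It fell by 1.15 on the log2 scale (adjusted p = 7.33e-08).

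No other member fell 2-fold. The next lowest was ZNF185, a LIM domain protein of the actin cytoskeleton without C2H2 fingers, whose RPKM was 10.8 and 11 in shCtl and 5.70 and 5.90 in shM2-3 (log2 fold change -0.84, adjusted p = 8.13e-08). ZNF787 followed at -0.66, and then ZNF18 at -0.61, ZNF485 at -0.55, ZNF143 at -0.54, ZNF550 at -0.53 and ZNF589 at -0.49, with adjusted p from 3.77e-06 to 0.0128. For these genes too the 2 groups did not overlap, as for most genes tested (43% lower and 42.6% higher in both libraries). ZNF485 no longer passed without shCtl replicate 2 (-0.39) or without shM2-3 replicate 1 (-0.40), and ZNF18 no longer passed without shCtl replicate 1 (-0.44).

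ZNF362 showed the largest rise. This gene, a close relative of ZNF384, had an RPKM of 1.51 and 1.62 in shCtl and of 6.87 and 7.10 in shM2-3. That is a log2 fold change of 2.22 (SE 0.106, adjusted p = 3.96e-10), or 4.66-fold. ZNF827, which brings the NuRD chromatin complex to telomeres, had 1.81 and 2.07 in shCtl and 6.30 and 6.27 in shM2-3. It rose by 1.76 on the log2 scale (SE 0.0824, adjusted p = 3.14e-10). Both genes were among those that met the limit only through shM2-3.

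ZNF786, a KRAB gene with 13 fingers, had an RPKM of 1.24 and 2.0 in shCtl and of 4.49 and 4.54 in shM2-3 (log2 fold change 1.54, SE 0.178, adjusted p = 3.47e-06). Its shCtl replicates were among the least alike of all members, yet both lay under the shM2-3 pair. ZNF385A, an RNA-binding protein and p53 cofactor, had 1.81 and 1.89 against 4.71 and 4.39 (log2 fold change 1.36). ZNF608 had 2.74 and 2.88 against 5.82 and 6.50 (1.20), and ZNF189, a KRAB gene with 16 fingers, had 2.08 and 2.17 against 4.37 and 4.71 (1.16). For ZNF385A, ZNF608 and ZNF189 the 2 libraries of a group lay close together beside the distance between groups. On log2(RPKM + 1) with limma, these 3 genes stayed below 2-fold (0.96, 0.91 and 0.83).

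Of the members that stood over the limit in every library, 3 rose at least 2-fold. ZNF644, a partner of the H3K9 methyltransferases G9a and GLP, had an RPKM of 5.32 and 4.99 in shCtl and of 11.9 and 10.4 in shM2-3 (log2 fold change 1.18, SE 0.0735, adjusted p = 6.44e-09). ZNF436, a KRAB gene, had 4.47 and 4.39 against 8.88 and 8.80 (1.06). ZNF629, with 19 fingers and no KRAB domain, had 5.92 and 5.17 against 10.6 and 11.1 (1.03). ZNF48 had 2.49 and 2.36 against 4.61 and 4.94 (1.05), and it met the limit only through shM2-3. ZNF629 and ZNF48 stood at the fold limit, and ZNF629 was below 2-fold without shCtl replicate 2 or shM2-3 replicate 2, as was ZNF48 without shM2-3 replicate 2, which left 9 and 8 members called higher. With limma, ZNF436 stayed below 2-fold whichever pseudocount was used (0.98 and 0.86), and ZNF644 did so on log2(RPKM + 1) (0.98). Exons of ZNF436 overlap those of ZNF436-AS1 on the other strand and exons of ZNF48 those of SEPTIN1, and since the libraries kept no strand, their reads cannot be told apart there.

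**Figure D3:**
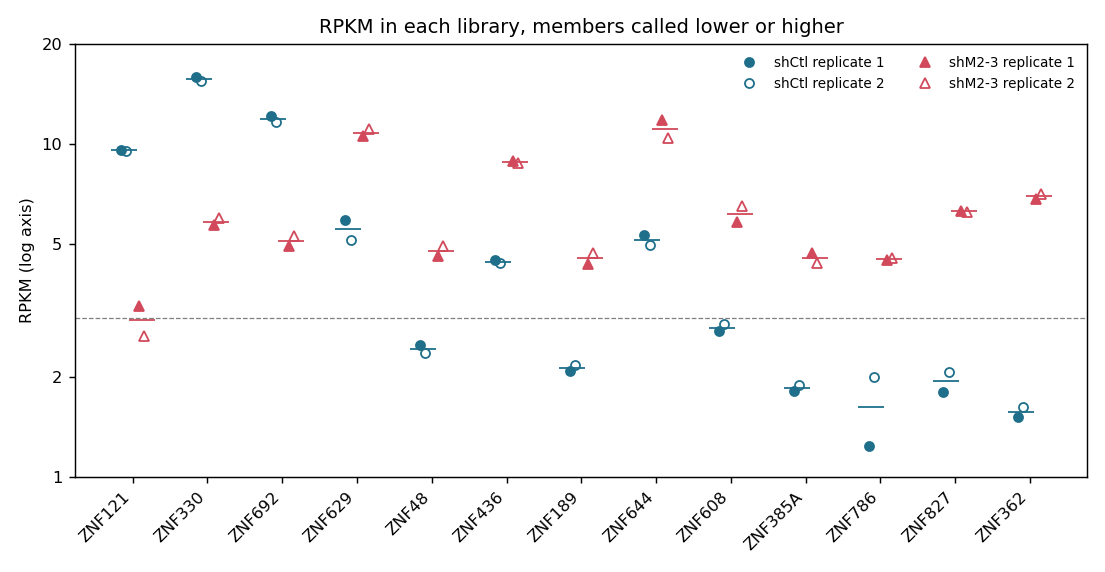
RPKM (log axis) of the 13 members that changed at least 2-fold, in each of the 4 libraries, with a dash at each group mean and a dashed line at the RPKM limit of 3. The shCtl and shM2-3 symbols do not overlap for any of the 13 genes, which were chosen by this difference. By TMM-scaled counts, both shM2-3 libraries lay under both shCtl libraries for 43% of all genes tested and over both for 42.6%. Most of the genes that rose have their shCtl symbols under the dashed line.

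None of the 8 most abundant members changed 2-fold, and 6 of them passed the test. ZNF207 (BuGZ), which loads the checkpoint protein BUB3 onto kinetochores, was the highest with an RPKM of 32.9 and 35.8 in shCtl and of 40.9 and 42 in shM2-3 (log2 fold change 0.34, adjusted p = 6.42e-05). ZNF703, a corepressor amplified in luminal breast cancer, had 34.2 and 40.0 in shCtl and 32.9 and 33.8 in shM2-3, and its groups overlapped once depth was scaled with TMM factors (-0.09, adjusted p = 0.207). ZNF664 was 0.19 higher on the log2 scale and ZNF217, a partner of CtBP and LSD1, 0.23 higher, and ZNF664 no longer passed with limma (0.12, adjusted p = 0.0723 with 0.1 added and 0.0701 with 1 added). ZNF358 had 21.0 and 20.5 in shCtl and 32.7 and 36.4 in shM2-3. That was the widest change of these 8 genes (0.80, adjusted p = 1.46e-07). However, 17.2% of its 100-base windows are shared with another annotated gene, whose exons overlap its own on the same strand. ZNF581 fell by 0.40 and ZNF622 fell by 0.23, while ZNF146 gave 0.08 (adjusted p = 0.247). ZNF703 passed with no filter (-0.12) and without shCtl replicate 1 (-0.19) but was 0.02 without shCtl replicate 2, and ZNF146 passed without shM2-3 replicate 2 (0.16) but was -0.02 without shM2-3 replicate 1.

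Among the 11 members that act on RNA, ribosomes or translation, 5 fell (45.5%, beside 36.4% of all genes), 4 rose (36.4%, beside 36.3%) and 2 did not pass. Those that fell included the factors of large-subunit maturation ZNF593 (-0.32) and ZNF622 (-0.23), the ligase ZNF598 that marks collided ribosomes (-0.22), and ZNF106 (-0.18), beside ZNF330. Those that rose were ZNF385A, the splicing-linked protein ZNF326 (0.66), ZNF207 and ZNF638 (0.32). Of these, ZNF385A and ZNF326 had a mean RPKM of 1.85 and 2.62 in shCtl. They met the limit only through shM2-3, so that they had to be higher. ZNF473, which acts in histone pre-mRNA processing, gave 0.17 and ZNF830 gave 0.03, neither past the test. ZNF593 no longer passed with DESeq2 or without shCtl replicate 1, shCtl replicate 2 or shM2-3 replicate 1, ZNF598 without shCtl replicate 1 or shM2-3 replicate 1, and ZNF622 without shM2-3 replicate 1.

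The 8 DNA-binding activators without KRAB split 1 lower (12.5%, beside 36.4% of all genes), 6 higher (75%, beside 36.3%) and 1 not passed. ZNF143, which binds many promoters, had an RPKM of 8.46 and 9.06 in shCtl and of 5.36 and 6.14 in shM2-3 (log2 fold change -0.54, adjusted p = 0.000202). Its close paralog ZNF76 went the other way, from 6.55 and 5.52 to 9.98 and 9.84 (0.78, adjusted p = 8.39e-06). ZNF281 (0.49), ZNF410 (0.46), a dedicated activator of CHD4, ZNF148 (0.39), ZNF384 (0.35) and ZNF131 (0.24) also rose, and ZNF335 gave 0.01. ZNF131 no longer passed without shCtl replicate 2 or shM2-3 replicate 2. ZNF410 shares 80.5% of its 100-base windows with another annotated gene, whose exons overlap its own on the same strand. Its value is kept as uncertain, since the effect of this overlap was not tested.

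Partners of corepressors, chromatin and SUMO without a KRAB domain numbered 12, of which 2 fell (16.7%, beside 36.4% of all genes), 7 rose (58.3%, beside 36.3%) and 3 did not pass. Beside ZNF827 and ZNF644, the rises were in ZNF592 (0.69), ZNF687 (0.47), ZNF219 (0.44), ZNF503 (0.37) and ZNF217. Of these, ZNF827 and ZNF219 had a mean RPKM of 1.94 and 2.99 in shCtl. They met the limit only through shM2-3, so that they had to be higher. The SUMO ligase ZNF451 fell by 0.37 and ZNF516, a CtBP partner, fell by 0.21. ZNF516 no longer passed without shM2-3 replicate 2, and ZNF219 no longer passed without shCtl replicate 1 (0.20) or shM2-3 replicate 1 (0.38). The shCtl replicates of ZNF219 were 2.42 and 3.55 RPKM. ZNF703, ZNF512 and ZNF462, which has 33 fingers, the most of all members, did not pass. The KRAB genes with known repeat or imprint targets were ZNF274 (-0.33), which guides SETDB1 to the ends of ZNF genes, and ZNF33A (0.26), and both passed with all libraries. ZNF274 no longer passed with DESeq2 or without shCtl replicate 1 or shM2-3 replicate 1, and ZNF33A no longer passed with limma or without shCtl replicate 2 or shM2-3 replicate 1. Of the 5 listed SCAN genes, ZNF24 (0.53), ZNF394 (0.42) and ZNF263 (0.40) rose (60%, beside 36.3% of all genes). ZNF496 fell by 0.42 (20%, beside 36.4%), and ZNF446 gave -0.23 and did not pass, although it did with limma (-0.30 and -0.24). The list leaves out some members with a SCAN domain. Over all 9 with one, 3 fell (33.3%), 4 rose (44.4%) and 2 did not pass, with ZNF18 lowest (-0.61). Of these 9, ZNF232 met the limit only through shM2-3 and ZNF18 only through shCtl. ZNF394 no longer passed without shM2-3 replicate 2 (0.30).

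**Figure D4:**
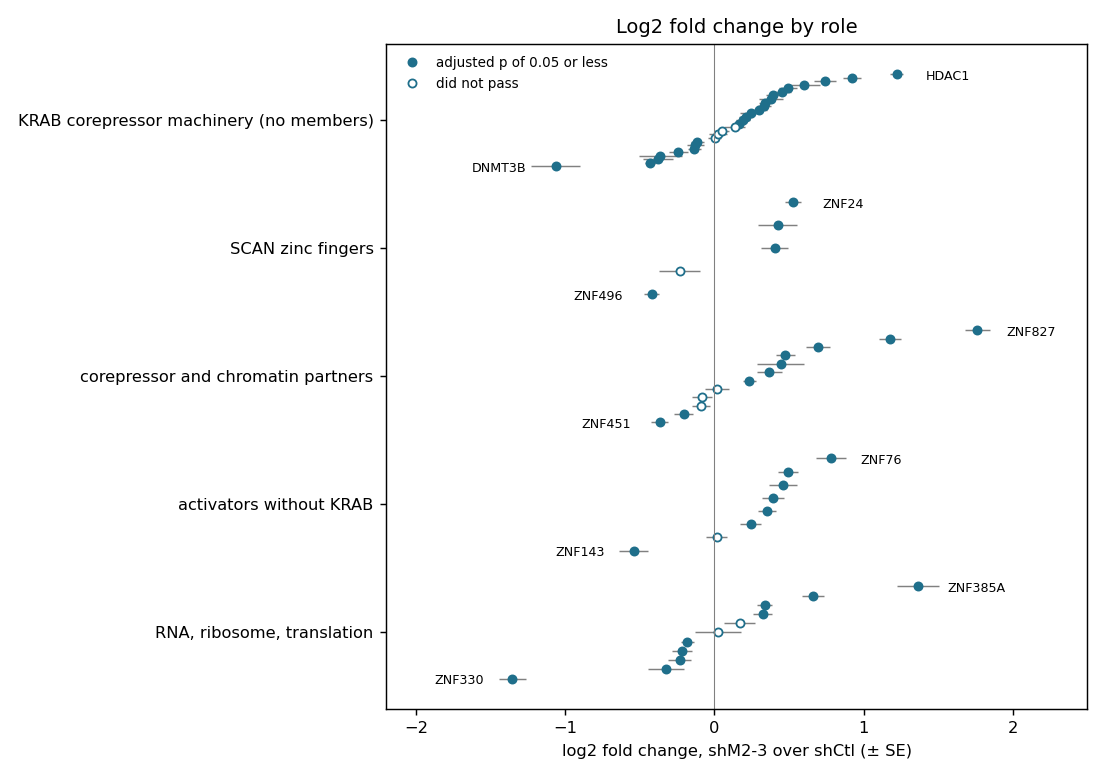
Log2 fold change, shM2-3 over shCtl, with bars of 1 standard error for members grouped by role and for the KRAB corepressor machinery; filled points have an adjusted p of 0.05 or less and the lowest and highest gene of each group is named. Among the members drawn, ZNF330 stands lowest at -1.35 and ZNF827 highest at 1.76.

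A KRAB domain was found in 55 members. With no fold limit, 10 of these fell (18.2%, beside 36.4% of all genes) and 22 rose (40%, beside 36.3%). By 2-fold or more, 3 of them rose (5.45%, beside 9.24% of all genes). For the 86 members without one, 21 fell (24.4%) and 41 rose (47.7%). Of the same 86, 3 fell 2-fold (3.49%, beside 8.93% of all genes) and 7 rose 2-fold (8.14%, beside 9.24%). With KRAB, ZNF786, ZNF189, ZNF84, ZNF707 and ZNF862 met the RPKM limit only through shM2-3 and had to be higher. Without KRAB, ZNF362, ZNF827, ZNF385A, ZNF608, ZNF48, ZNF326, ZNF219 and ZNF232 did so too. ZNF18 and ZNF485 with KRAB and ZNF121 without met it only through shCtl and had to be lower. The median log2 fold change was 0.13 with KRAB and 0.17 without. The median number of C2H2 fingers was 12 with KRAB and 6.5 without, and 7 members had no match to the pattern, 1 of them ZNF252P, a non-coding locus. A SCAN domain was found in 9 members, 6 of them with KRAB. No KRAB gene fell 2-fold, and no test between the classes was run.

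The machinery that KRAB proteins recruit moved in both directions. Of 27 genes of that machinery tested, 8 fell (29.6%, beside 36.4% of all genes), 15 rose (55.6%, beside 36.3%) and 4 did not pass. TRIM28, the shared corepressor, had an RPKM of 107 and 107 in shCtl and of 76.6 and 75.6 in shM2-3 (log2 fold change -0.43, adjusted p = 2.87e-07), while SETDB1 went from 5.17 and 5.47 to 6.47 and 6.75 (0.38, adjusted p = 0.000674). HDAC1 rose from 44.2 and 44.9 to 98.0 and 100.4 (1.22), and DNMT3B fell from 2.06 and 2.44 to 0.988 and 1.07 (-1.06). DESeq2 gave 5 genes lower, and leaving out a library gave 4 to 6.

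On chromosome 19, which holds 229 of the 481 placed ZNF genes, lay 32 members, and 57.9% of the ZNF genes under the limit. These 32 had a median log2 fold change of -0.04, with 8 lower (25%) and 7 higher (21.9%). The 109 on other chromosomes had 0.19, with 23 lower (21.1%) and 56 higher (51.4%). All 13 members that met the limit only through shM2-3 were among these 56, and those 13 had to be higher. ZNF121 on chromosome 19, and ZNF18 and ZNF485 elsewhere, met it only through shCtl and had to be lower. Over all genes tested, 36.4% were lower and 36.3% higher. All 10 members that rose 2-fold lay outside chromosome 19 (9.17% of the 109, beside 9.24% of all genes). Of these 10, 7 met the limit only through shM2-3. No test between chromosomes was run.

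The 5 clusters with at least 5 neighbours each held members on both sides of 0. In the chromosome 7 cluster of 8 members, all with KRAB, ZNF786 was highest (1.54) and ZNF282 lowest (-0.15, adjusted p = 0.0406). The chromosome 16 cluster of 5 held both ZNF48 and ZNF629, with ZNF768 at -0.16 between them in position. ZNF121 lay in a chromosome 19 cluster of 5 whose other members ran from -0.03 to 0.31 (ZNF561). A cluster of 7 on that chromosome ran from ZNF787 (-0.66) to ZNF865 (0.85) and a cluster of 6 from ZNF550 (-0.53) to ZNF134 (0.34). Some smaller groups of neighbours lay on 1 side. ZNF672 (-0.30) and ZNF692 both fell, ZNF316 (0.34) and ZNF12 (0.79) both rose, as did ZNF623 (0.54) and ZNF707 (0.76). The 4 members from ZNF251 to ZNF252P lay between 0.06 and 0.73, and 2 of them passed.

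**Figure D5:**
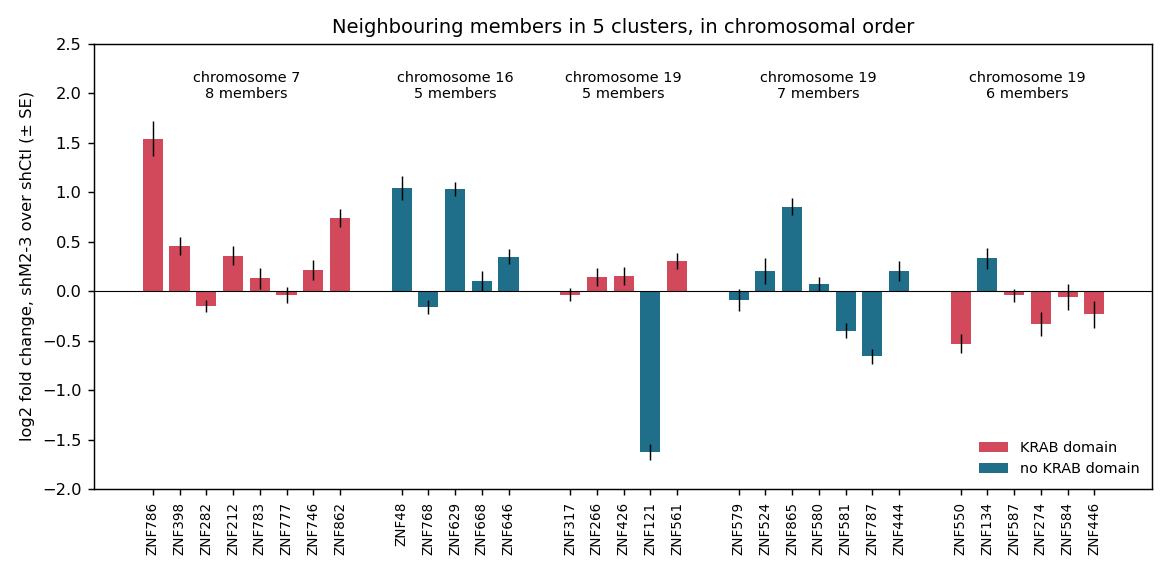
Log2 fold change, shM2-3 over shCtl, with bars of 1 standard error for members of the 5 clusters with at least 5 neighbours, in chromosomal order. Bars of opposite sign stand side by side in each cluster, and ZNF121 at -1.63 is the only one under -1.

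Shared sequence limits some values. At least 10% of 100-base windows were shared with another gene for 14 members, led by ZNF23 (96.1%), ZNF410 and ZNF286A (60.2%). For the genes just named, the annotated gene that shares most overlaps their exons on the same strand, at the same place in the genome. The values of the 14 members are kept as uncertain, since the effect of sharing on them was not tested. ZNF322, with 21.9% of its windows shared with the pseudogene ZNF322P1, had some of the least similar replicates, at 8.32 and 5.46 RPKM in shCtl and 5.91 and 5.17 in shM2-3, and its difference of -0.25 on the log2 scale did not pass (adjusted p = 0.142). It passed with no filter (adjusted p = 0.00304) and without shCtl replicate 2 (-0.52, adjusted p = 3.95e-07), and was 0.09 without shCtl replicate 1. For 110 members no window was shared, and all 13 members that changed 2-fold were among them. Exons on the opposite strand overlapped 56 members.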

How the data were processed

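ES-2 RNA-seq libraries (2 shCtl, 2 shM2-3) were grouped by their labels. The study's methods give 72 h of transduction for this step where the labels give 96 h. Per the submitters' processing notes and the study's methods, the authors aligned paired reads of 150 bases to hg38 with HISAT2 2.0.4, left out ambiguous reads and any with a mapping quality below 10, and used Partek to quantify RefSeq genes. The deposited estimated counts were not normalized, and the deposited RPKM values are those counts scaled by gene length and library size by the authors.

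After rounding, the quasi-likelihood test of edgeR 4.0.16 in R 4.3.3 was applied (TMM, estimateDisp, glmQLFit and glmQLFTest, no block) over 12157 genes with RPKM above 1 in at least 1 library. The design was written for counts, and the rounding was needed since 42.4% to 48.6% of values were whole. Calls needed at least a 2-fold change and a p, adjusted by Benjamini-Hochberg, of 0.05 at most. The SE is the log2 fold change over the square root of F. The test was checked on simulated data, where it recovered most 2-fold changes but, when the spread was drawn gene by gene, made more false calls without a fold limit than the nominal rate in most draws. Alternatives used DESeq2 1.42.0, limma 3.58.1, other filters, limits and scalings, and each library left out. With 2 libraries per group, p-values measure the spread between 2 cultures, and precision at low counts is set by counting error. Replicates differed by more than sampling noise (chi-square over its degrees of freedom 3.46 and 3.98).

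Members and gene lists were chosen with earlier results of these data known. Genes were named by rule: the 10 lowest and highest with an adjusted p of 0.05 or less, the 8 most abundant, those nearest the limit, those whose replicates differ most (ZNF786, ZNF322, ZNF219), role lists, and cluster extremes. Domain classes, finger and level bins, the 500000-base cluster gap and promoter letters were set after values had been seen. C2H2 fingers were matched by a pattern in canonical proteins of GENCODE release 44 (same build), and KRAB and SCAN by profiles (pyhmmer 0.12.3, E of 0.001 or less) in any coding transcript. Promoters came from RefSeq. Some marker genes were not analysed here or are not reported here.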

Additional observations from a re-analysis of the deposited data

How the results depend on the processing

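The 3 members called lower stayed called under every test, scaling and filter tried and without each library. Members called higher were 9 with total counts and 8 to 10 without 1 library, but 3 with limma on log2(RPKM + 1) and 7 with log2(RPKM + 0.1). The members lost with limma kept an adjusted p of 0.05 or less in its test and missed only the fold limit. Adding a number to RPKM makes ratios of small values smaller. The limit on level moved the counts to 7 lower and 23 higher at a mean RPKM of 1 or more, and to 3 higher at 5 or more and 3 higher at 3 or more in every library. A fold limit of 1.5 gave 6 lower and 25 higher. The median log2 fold change was 0.0748 and 0.0638 with limma (0.1 and 1 added), 0.0550 at a mean RPKM of 5 or more and 0.0755 at 3 or more in every library. Corepressor genes lower were 5 with DESeq2 and 4 to 6 without 1 library. Replicate numbers did not pair the libraries (correlation of deviations -0.0167), and with a replicate block 31 members were lower and 64 higher, with 3 and 10 called. Some fold changes of members that did not pass changed sign. With total counts, no filter, limma (0.1) and limma (1), in this order, ZNF839 gave -0.0317, -0.0276, -0.0656 and -0.0506, ZNF830 gave -0.0104, -0.00608, -0.0392 and -0.0315, ZNF335 gave -0.0206, -0.0163, -0.0504 and -0.0453, ZNF462 gave -0.0164, -0.0124, -0.0438 and -0.0351. With filterByExpr, ZNF839 gave -0.0139 and ZNF335 gave -0.00227. Without 1 library, ZNF703 ran from -0.194 to 0.0242, ZNF146 ran from -0.0189 to 0.164, ZNF839 ran from -0.146 to 0.136, ZNF322 ran from -0.522 to 0.0923, ZNF830 ran from -0.0627 to 0.117, ZNF335 ran from -0.0155 to 0.0448, ZNF462 ran from -0.0836 to 0.127. The cause of these shifts was not tested.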

Other observations

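Zinc finger genes under other symbols gave these values, beside 36.4% lower and 36.3% higher over all genes tested. Of 34 tested ZBTB genes, 8 (23.5%) were lower and 17 (50%) higher at an adjusted p no higher than 0.05 (quasi-likelihood test of edgeR), at a median log2 fold change of 0.19. Of 20 tested ZSCAN and ZKSCAN genes, 13 (65%) were higher and 7 did not pass, at a median of 0.33. Of 12 tested ZFP genes, 1 (8.33%) was lower and 4 (33.3%) higher, at a median of 0.01. No test between these families was run.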
